A study of Mus musculus with 5 samples.

Results

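The small leucine-rich proteoglycans are secreted proteins of the extracellular matrix, built from a core of leucine-rich repeats. The 9 genes Bgn, Dcn, Aspn, Fmod, Lum, Prelp, Omd, Ogn and Podn were chosen by symbol, with earlier results of these data known. They are 9 of the 25415 genes and 14 of the 40201 RefSeq transcripts in the data. RNA-seq was examined in 2 replicates of neural stem cells (NSCs) and in 3 replicates of STO cells. The NSCs were primary cells isolated from the cortex of midgestation mouse embryos. They were grown for 5 to 8 passages as monocultures on poly-L-ornithine and laminin, in neural basal medium with EGF, bFGF, heparin and B27. STO is a single line of SIM mouse embryonic fibroblasts, used after more than 30 passages in DMEM with fetal bovine serum. The labels give the strain C57BL/6 for both cell types, although the study describes STO as derived from SIM mouse embryos. Whether the cell types share a genetic background was not tested. The labels do not say that the replicates came from separate cultures. The p-values therefore measure only the spread between these samples, which may be technical.

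In connective tissue these proteins bind collagen fibrils and set their thickness and spacing, and they bind growth factors and cell surface receptors. The core proteins fall into classes by sequence. Biglycan (Bgn), decorin (Dcn) and asporin (Aspn) belong to class I, fibromodulin (Fmod), lumican (Lum), prolargin (Prelp) and osteomodulin (Omd) to class II, osteoglycin (Ogn) to class III and podocan (Podn) to class V. Biglycan and decorin carry chondroitin or dermatan sulfate chains, and fibromodulin, lumican and osteomodulin can carry keratan sulfate. Fibroblasts are a known source of these proteins, whereas in the brain they are mainly known from the meninges and the vessel wall.

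Values are FPKM, fragments scaled by transcript length and by sequencing depth, summed over the transcripts of a gene. FPKM divides by transcript length, so that levels of different genes can be set side by side. The FPKM of all transcripts summed to 442905 and 446393 in the NSC replicates and to between 385485 and 399970 in the STO replicates. The number of fragments behind a value was estimated from the deposited confidence intervals, for genes with a single transcript. Differences between cell types are STO minus NSC in log2(FPKM + 1), a scale that shrinks the fold change of genes with low FPKM towards 0. In bulk samples, fewer cells of a type and less RNA per cell cannot be told apart.

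All 6 NSC markers were lower in STO cells by limma at an adjusted p under 0.05. Their summed level was 3811 and 4027 FPKM in the NSC replicates and between 0.0442 and 0.0724 FPKM in the STO replicates, with Sox2, Olig2, Fabp7 and Pax6 at 0 in every STO replicate. All 7 fibroblast markers were higher in STO cells, with sums of 31.6 and 31.7 FPKM in NSCs and between 1376 and 1458 FPKM in STO cells. Col3a1 was listed at 0 in both NSC replicates, while most of the NSC sum came from Pdgfra at 30.3 FPKM, a receptor that some neural progenitors also use. Of the 3 astrocyte markers, all 3 were lower in STO cells, and Gfap had a mean of 16.4 FPKM in NSCs. Of the 4 neuron markers, 2 were lower in STO cells, Tubb3 did not pass the test (adjusted p = 0.48 by limma) and Rbfox3 was below the level tested. Genes were tested if their mean reached 1 FPKM in either cell type. The NSC and astrocyte markers and Dcx passed this filter through their NSC level alone. The fibroblast markers except Pdgfra passed it through their STO level alone. The direction of these differences was therefore fixed, and their counts support nothing further. Over all genes tested, 41.9% were higher and 43.7% were lower. None of the 4 endothelial and mural or the 4 microglia markers reached a mean of 1 FPKM in either cell type, with sums of at most 0.476 and 0.383 FPKM. Of the 4 meningeal markers, only Foxc1 was tested, and it was higher in STO cells at 5.57 FPKM against 2.68 FPKM in NSCs. Slc6a13 went the other way, at 0.132 and 0.215 FPKM in the NSC replicates and 0 in every STO replicate. Slc47a1 had a mean of 0.00604 FPKM in NSCs and 0 in STO cells, and Alx1 was at 0 in all 5 samples. The part of these other cell types in the results below was not tested.

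The upstream sequences of 6 members are shown so that genes of high and low level in STO cells can be set side by side: Bgn with the highest level, the neighbours Ogn and Omd, the neighbours Prelp and Fmod, and Podn, whose replicates overlapped between the cell types. Each is the 250 bases before the RefSeq transcription start in GRCm38.p6, on the strand of the gene. That build differs from the mm9 build of the expression data, whose coordinates are given separately. Capitals mark the letters TATAAA of the TATA box, the letters GGGCGG of the GC box and the letters CCAAT of the box of that name, searched on both strands. Positions below are those of a match's first printed base, counted backwards from the base next to the start.
Bgn, chrX:73483351-73483600, plus strand: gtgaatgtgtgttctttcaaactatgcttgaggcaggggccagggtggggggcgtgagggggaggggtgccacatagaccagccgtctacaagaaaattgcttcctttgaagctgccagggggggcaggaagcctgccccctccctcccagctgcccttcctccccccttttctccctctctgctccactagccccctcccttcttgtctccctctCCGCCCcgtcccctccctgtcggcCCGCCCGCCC
Ogn, chr13:49607765-49608014, plus strand: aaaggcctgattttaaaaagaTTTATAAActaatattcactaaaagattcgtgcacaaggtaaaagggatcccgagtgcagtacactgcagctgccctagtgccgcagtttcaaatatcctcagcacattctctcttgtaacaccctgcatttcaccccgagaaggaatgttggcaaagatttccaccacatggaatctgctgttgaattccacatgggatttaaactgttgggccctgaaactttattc
Omd, chr13:49582212-49582461, plus strand: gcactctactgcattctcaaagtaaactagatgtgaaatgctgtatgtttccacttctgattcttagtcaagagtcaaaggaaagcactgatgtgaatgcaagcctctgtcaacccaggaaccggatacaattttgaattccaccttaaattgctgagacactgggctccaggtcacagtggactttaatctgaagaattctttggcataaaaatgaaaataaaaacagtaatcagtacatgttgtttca
Prelp, chr1:133921402-133921651, minus strand: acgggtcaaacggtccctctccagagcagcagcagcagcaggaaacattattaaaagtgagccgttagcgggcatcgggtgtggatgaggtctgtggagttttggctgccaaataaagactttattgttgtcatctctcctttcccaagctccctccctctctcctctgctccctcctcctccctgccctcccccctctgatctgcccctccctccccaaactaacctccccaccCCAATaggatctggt
Fmod, chr1:134037004-134037253, plus strand: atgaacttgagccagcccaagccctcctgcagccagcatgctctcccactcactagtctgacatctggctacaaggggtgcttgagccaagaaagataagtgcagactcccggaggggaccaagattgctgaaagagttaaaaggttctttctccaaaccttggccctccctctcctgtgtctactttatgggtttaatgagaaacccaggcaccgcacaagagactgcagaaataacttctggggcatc
Podn, chr4:108031955-108032204, minus strand: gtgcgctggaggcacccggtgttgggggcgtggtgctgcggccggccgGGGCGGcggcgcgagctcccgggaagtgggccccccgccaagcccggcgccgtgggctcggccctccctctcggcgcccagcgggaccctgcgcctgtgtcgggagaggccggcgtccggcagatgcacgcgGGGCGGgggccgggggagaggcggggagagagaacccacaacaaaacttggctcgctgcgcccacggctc

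These windows differed widely in base composition. Of the members, 7 of 9 matched the table of promoters, with 8 windows because Podn had 2; Dcn and Lum had no match. The Bgn window was 64.4% G and C and held 7 CG dinucleotides, and the Podn window shown was 78% G and C with 32 CG dinucleotides. The Podn window not shown (chr4:108030987-108031236) was closer to that of Bgn, at 64% G and C with 7 CG dinucleotides. The Omd window held 1 CG dinucleotide at 38.4% G and C, the Fmod window 2 at 51.2%, the Ogn window 4 at 42% and the Prelp window 5 at 55.6%. The median over 32851 windows of the same length was 6 CG dinucleotides and 52.4% G and C. GGGCGG was found 3 times in the Bgn window, starting 34, 10 and 6 bases before the transcription start. It was also in the Podn window shown, 202 and 70 bases before the start. This motif was in 32.74% of all windows. TATAAA was found in the Ogn window as overlapping matches on both strands, 229 and 227 bases before the start, and in the Aspn window 207 and 178 bases before it; 12.37% of all windows held it. CCAAT was found in the Prelp window 15 bases before the start and in the Aspn window 229 bases before it, against 33.85% of all windows. The Omd and Fmod windows and the Podn window not shown held none of the 3 motifs. Such matches describe the letters only.

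The members were nearly absent from the NSC libraries and led by Bgn and Dcn in the STO libraries. Their summed level was 0.690 and 0.488 FPKM in the NSC replicates and 728.5, 758.1 and 726 FPKM in the STO replicates. This was 0.000156% and 0.000109% of all FPKM in NSCs and between 0.182% and 0.197% in STO cells. Of the 9 genes, 4 had a mean of at least 1 FPKM in either cell type and were tested, and all 4 were higher in STO cells. Among the 12293 genes tested, 41.9% were higher and 43.7% were lower in STO cells. The 4 members passed the filter through their STO level alone, so the direction of their difference was fixed and their count supports nothing further. For 8 of the 9 members every STO replicate was above every NSC replicate, which was so for 37.3% of the 17725 genes above 0 in any sample. Podn was the exception. The median difference over the 9 members was 0.615, the value of Omd, against -0.004 over those 17725 genes. With 0.1 added to FPKM in place of 1, Omd differed by 2.58. Since the members were chosen with earlier results of these data known, these comparisons with all genes describe them and measure no enrichment.

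**Figure D1:**
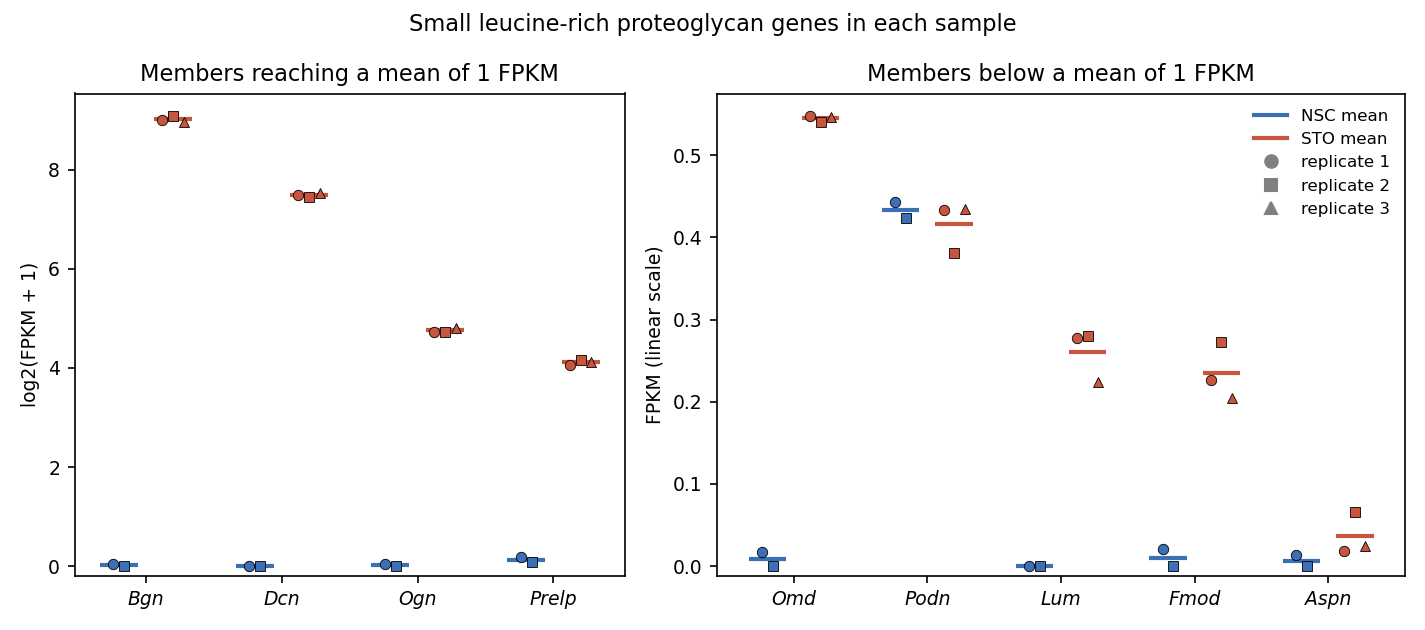
Level of each member in each of the 5 samples, as log2(FPKM + 1) for the 4 members that reached a mean of 1 FPKM and as FPKM on a linear axis for the other 5; points are replicates and lines are means of NSCs (n = 2) and STO cells (n = 3). Bgn, Dcn, Ogn and Prelp lie far above the NSC replicates in STO cells. The Podn ranges of the cell types overlap, with all 5 samples between 0.381 and 0.443 FPKM.

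Among the class I genes, Bgn (chrX:70728940-70741275, plus strand, mm9) had the highest level of all members. Its 5 values were 0.0262 and 0 FPKM in the NSC replicates and 507.8, 539.9 and 497 FPKM in the STO replicates. The single NSC value above 0 corresponded to about 2 fragments (1.99), whereas the STO values rested on 27330, 33220 and 40730 fragments. The STO mean was 515 ± 22.3 FPKM (SD, n = 3), which ranked 90 among all genes in STO cells. The difference of 8.99 (SE 0.0568) had an adjusted p of 3.5e-09 by limma and was the second largest rise, rank 2, among the genes tested. The coefficient of variation between the STO replicates was 4.3%, against 0.50% from counting fragments alone in STO replicate 3.

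Dcn (chr10:96942134-96980797, plus strand, mm9), whose product decorin binds collagen fibrils and TGF-beta, was listed at 0 in both NSC replicates. In the STO replicates it was at 177.9, 174.3 and 184.2 FPKM, with a mean of 179 ± 5.00 FPKM (SD, n = 3) and rank 306 among all genes. The groups were far apart. The difference was 7.49 (SE 0.0504, adjusted p = 3.5e-09 by limma), which ranked 17 among the rises, and no fold is given against values of 0. Of the 2 Dcn transcripts, the one starting at 96942134 carried the whole value in each STO replicate and the one starting at 96944965 was listed at 0 in all 5 samples. That split is an estimate of Cufflinks and was not tested. Bgn exceeded Dcn 2.85, 3.10 and 2.70 times in STO replicates 1, 2 and 3.

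Aspn (chr13:49639812-49662931, plus strand, mm9), a class I gene whose product asporin binds collagen and has a run of aspartates in place of the usual chain attachment, was barely detected. It had 0.0136 and 0 FPKM in the NSC replicates and 0.0189, 0.0663 and 0.0249 FPKM in the STO replicates. The lowest STO value stood 0.0189 against 0.0136 FPKM in NSC replicate 1, so the groups were separate by a margin smaller than the spread within STO cells. Aspn was below the level tested, and without the filter on low values its adjusted p was 0.2 by limma. The class I genes therefore spanned the whole range of member levels in STO cells, from 515 to 0.0367 FPKM.

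Among the class II genes only Prelp reached 1 FPKM. Prelp (chr1:135806882-135817978, minus strand, mm9) encodes a protein of basement membranes and cartilage that binds heparan sulfate. It was at 0.132 and 0.0645 FPKM in the NSC replicates and at 15.7, 16.9 and 16.3 FPKM in the STO replicates. With about 14.7 and 8 fragments behind its NSC values, Prelp was above 0 in both NSC replicates. The STO mean of 16.3 ± 0.605 FPKM (SD, n = 3) was 166 times the NSC mean of 0.0985 ± 0.0481 FPKM (SD, n = 2). The difference of 3.98 (SE 0.0597) had an adjusted p of 1.6e-08 by limma.

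The other class II genes stayed below 1 FPKM. Omd (chr13:49677831-49687980, plus strand, mm9), known from mineralised tissue, had 0.0171 and 0 FPKM in NSCs and 0.548, 0.540 and 0.547 FPKM in STO cells. Lum (chr10:97028135-97035337, plus strand, mm9), a keratan sulfate proteoglycan of cornea and skin, was listed at 0 in both NSC replicates and had 0.278, 0.280 and 0.224 FPKM in STO cells. Fmod (chr1:135933831-135944857, plus strand, mm9), which regulates collagen fibril growth in tendon, had 0.0204 and 0 FPKM in NSCs and 0.227, 0.273 and 0.205 FPKM in STO cells. Every STO replicate was above every NSC replicate for all 3 genes. The STO values rested on only 13 to 16 fragments for Lum and 16 to 22 fragments for Fmod. Without the filter on low values, all 3 were higher in STO cells by limma, with adjusted p-values of 5.6e-06 for Omd, 0.00015 for Lum and 0.00041 for Fmod. In that fit 7 of the 9 members were higher, against 33.4% of the 17725 genes. This count measures no enrichment, since the members were chosen with earlier results of these data known. An NSC level of Lum below about 0.0458 FPKM, the level of 3 fragments in NSC replicate 1, could not be told from 0 at this depth. The limit covers counting error only. The Fmod value of 0.0204 FPKM in that replicate rested on about 1.99 fragments.

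Ogn (chr13:49703440-49719869, plus strand, mm9), the class III gene whose product is also called mimecan and is found in bone and connective tissue, was the third of the members in STO cells. Its 5 values were 0.0376 and 0 FPKM in NSCs and 25.5, 25.5 and 27.1 FPKM in STO cells. The NSC value above 0 corresponded to 3 fragments, and the STO values to between 1461 and 2368 fragments. The STO mean was 26.0 ± 0.936 FPKM (SD, n = 3), and the difference was 4.73 (SE 0.0568, adjusted p = 7.9e-09 by limma). Ogn exceeded Prelp 1.62, 1.51 and 1.66 times in the 3 STO replicates.

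Podn (chr4:107687398-107704695, minus strand, mm9), the class V gene, encodes podocan, a collagen-binding protein first described in kidney podocytes. Its values were 0.443 and 0.424 FPKM in the NSC replicates and 0.434, 0.381 and 0.434 FPKM in the STO replicates. The ranges overlapped. The means were 0.433 ± 0.0136 FPKM (SD, n = 2) and 0.416 ± 0.0309 FPKM (SD, n = 3), and without the filter on low values the difference of -0.018 (SE 0.0298) had an adjusted p of 0.62 by limma. The sign of this difference depended on the scaling: it was 0.38 after quantile normalization. The split between its transcripts moved between samples of the same cell type. Transcript NM_172874 had 0.276 and 0.135 FPKM in NSCs and 0.434, 0.147 and 0.101 FPKM in STO cells, transcript NM_001285958 had 0.167, 0.289, 0, 0.233 and 0.334 FPKM in the same order, and the third was at 0 throughout. The gene sum was therefore steadier than its parts.

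**Figure D2:**
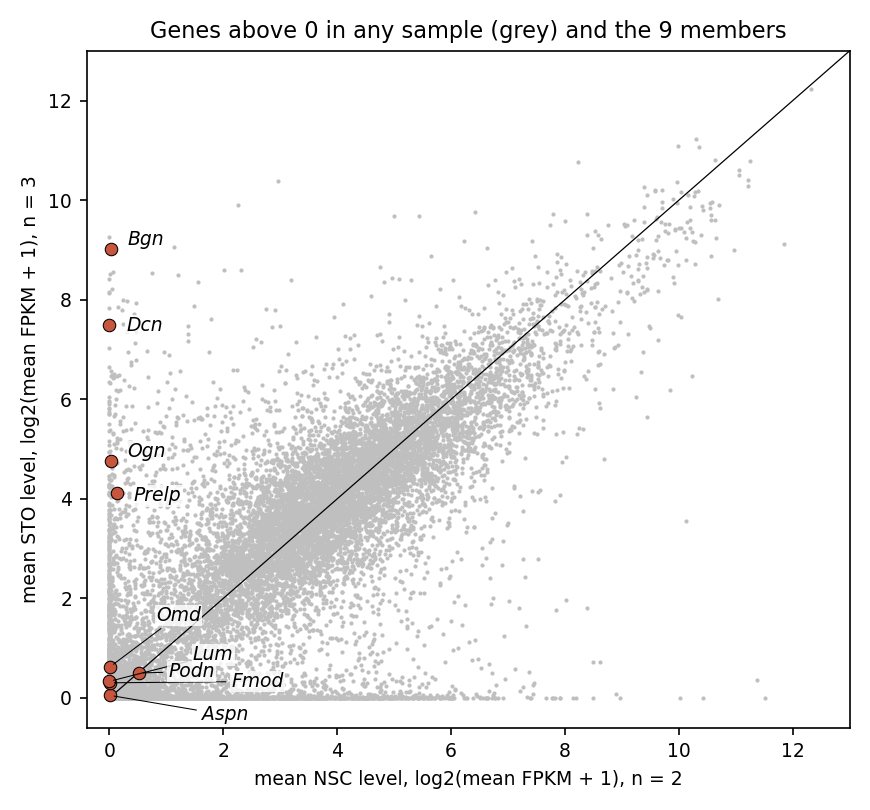
Mean level in STO cells (n = 3) against mean level in NSCs (n = 2), both as log2(mean FPKM + 1), for the 17725 genes above 0 in any sample (grey points) and the 9 members (red points with names); the line marks equal levels. Bgn, Dcn, Ogn and Prelp lie along the left edge, Podn lies near the line, and the other 4 members lie near the origin.

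The order of the levels in STO cells was steep. Bgn and Dcn made up 69.8% and 24.3% of the members' summed FPKM, Ogn 3.53% and Prelp 2.21%. Neighbours in the order were separate in their replicate values down to Lum: Bgn was 2.88 times Dcn, Dcn 6.87 times Ogn, Ogn 1.59 times Prelp, and Prelp 30.0 times Omd. Omd was 1.31 times Podn and Podn 1.60 times Lum. Lum and Fmod overlapped, at means of 0.261 and 0.235 FPKM, and Aspn was last. In NSCs the order was another one. Podn was highest, 4.40 times Prelp, and the ranges of the other 7 members overlapped, with none above 3 fragments where fragments could be estimated. NSC replicate 1 had 2 members at 0 and NSC replicate 2 had 7, whereas none was at 0 in any STO replicate.

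Of the 9 members, 7 lie in 3 groups of family genes on chromosomes 10, 13 and 1, and levels within each group were uneven. On chromosome 10, Dcn and Lum are 47.3 kb apart, with Kera and Epyc further along within 202 kb. Dcn was 686 times Lum in STO cells. Kera, the keratan sulfate proteoglycan keratocan, was at 0 in all 5 samples, and Epyc, or epiphycan, was at 0 in NSCs and at 0, 0.0225 and 0.0338 FPKM in STO cells. On chromosome 13 the genes Ecm2, Aspn, Omd and Ogn follow each other within 120 kb on the plus strand, and their STO means were 0.152, 0.0367, 0.545 and 26.0 FPKM. Ogn was 47.8 times Omd, from which it is separated by 15.5 kb. On chromosome 1, Prelp lies 2.31 kb from Optc and 116 kb from Fmod, and its STO level was 42.9 and 69.5 times theirs. Thus 1 gene of each group was above 1 FPKM in STO cells, and none was in NSCs.

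**Figure D3:**
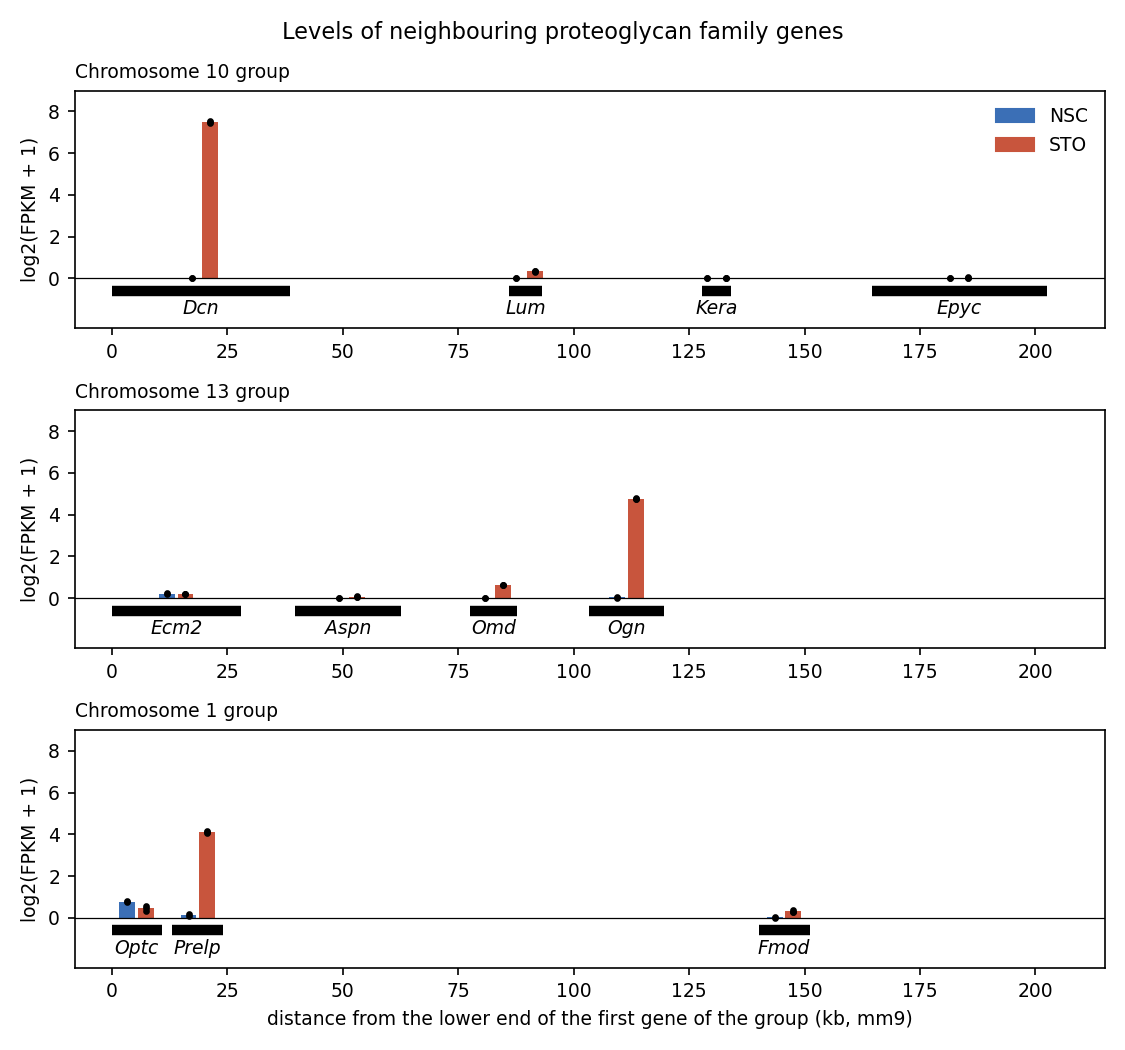
Levels of family genes in the 3 chromosomal groups, as log2(FPKM + 1), against distance in kb from the lower end of the first gene in mm9; black bars are gene loci, coloured bars are the means of NSCs (n = 2) and STO cells (n = 3), and points are replicates. A single tall STO bar stands in each group, for Dcn, Ogn and Prelp.

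Of the nearest genes outside the family that were tested, Haus7 and Cenpp did not pass the test and Nol8, Btg2 and Scp2 differed by at most 0.55 on the log2 scale in either direction. Cenpp, a centromere protein gene on the minus strand, has a locus (chr13:49559428-49748100) that spans Aspn, Omd and Ogn. It was at 6.37 and 7.74 FPKM in NSCs and 6.44, 5.54 and 6.93 FPKM in STO cells and did not pass the test (adjusted p = 0.27 by limma). The kit marks strand, but whether Cufflinks used it is not given in the sources used here, so overlapping fragments of the opposite strands may not have been separated. Haus7, 24.6 kb from Bgn, had means of 15.0 and 15.2 FPKM in NSCs and STO cells (adjusted p = 0.86 by limma). Atp2b3, 7.15 kb on its other side, was at 0.0239 FPKM in NSCs and 0 in STO cells. Nol8, a nucleolar protein gene 28.6 kb from Ogn, was higher in STO cells by 0.51 (adjusted p = 0.0011 by limma). Btg2, 26.6 kb from Fmod, was lower by -0.55 (adjusted p = 0.00012), and Scp2, 11.7 kb from Podn, was lower by -0.26 (adjusted p = 0.0036). Slc1a7, 1.26 kb from Podn, was at 0 in NSCs and at 0.0157 FPKM in STO cells, and Mir3966 and 4930473O22Rik beside Dcn and Lum were at 0 in all 5 samples.

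For each tested member, the 2 other genes with the smallest root mean square difference in log2(FPKM + 1) over the 5 samples were taken as most alike. Bgn was closest to Prl2c2 (0.204) and to the complement gene C3 (0.354). Dcn was closest to the chemokine gene Cxcl12 (0.156) and to the gelatinase gene Mmp2 (0.222). Ogn was closest to Colec12 (0.038) and Irx2 (0.068), and Prelp to Dlx1 (0.051) and Ly75 (0.067). These distances rest on 5 samples of 2 cell types and describe levels only.

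The other 9 family genes gave a mixed picture. Of these, 3 were tested, 2 were higher and 1 was lower in STO cells, against 41.9% higher and 43.7% lower among all genes tested. Podnl1 passed the filter through its STO level alone and Chadl through its NSC level alone, so the direction of their differences was fixed. Tsku was above the filter in both cell types. Tsku, which encodes the secreted protein tsukushi, was at 6.87 and 6.08 FPKM in NSCs and at 20.5, 20.1 and 20.3 FPKM in STO cells, a rise of 1.51 (adjusted p = 1.5e-06 by limma). Podnl1, the relative of Podn, was at 0 in NSCs and at 4.56, 3.74 and 4.62 FPKM in STO cells (adjusted p = 6.8e-07). Chadl, a chondroadherin-like gene, went the other way, at 4.09 and 4.47 FPKM in NSCs and 0 in the 3 STO replicates (adjusted p = 5.6e-08). Optc, or opticin, had 0.695 and 0.718 FPKM in NSCs and 0.268, 0.470 and 0.403 FPKM in STO cells, with an adjusted p of 0.0091 in the limma fit without the filter. The means in NSCs and STO cells were 0.157 and 0.152 FPKM for Ecm2, 0.00864 and 0.161 FPKM for Chad, and 0.00878 and 0.0438 FPKM for Nyx.

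Chains are added to some of the core proteins in the Golgi, beginning with a linkage region that starts from xylose. All 6 linkage region genes were tested, and 1 was higher, 4 were lower and 1 did not pass the test. Over all genes tested, 41.9% were higher and 43.7% were lower. Xylt1, 1 of the xylosyltransferases that start the chain, was at 49.4 and 49.8 FPKM in NSCs and at 0.361, 0.277 and 0.360 FPKM in STO cells. Its NSC mean was 149 times its STO mean (difference -5.25, adjusted p = 5.9e-09 by limma). The other xylosyltransferase gene, Xylt2, was at 10.2 and 11.7 FPKM, a rise of 0.19 (adjusted p = 0.021). B3galt6 and B3gat3 were lower in STO cells by -0.87 and -0.50. The Xylt2 mean in STO cells was 1.15 times that in NSCs.

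Of the 16 chondroitin and dermatan sulfate genes, 14 were tested, 9 were higher and 5 were lower. The shares over all genes tested were 41.9% higher and 43.7% lower. The epimerase genes Dse and Dsel, whose products turn chondroitin into dermatan sulfate, rose from 0.851 to 23.3 FPKM and from 1.48 to 9.16 FPKM, differences of 3.72 and 2.04. Chst14, the dermatan 4-O-sulfotransferase gene, rose from 1.23 to 17.1 FPKM (difference 3.02, adjusted p = 7.5e-08 by limma). Another 3 genes of chondroitin sulfotransferases, the largest falls of this list, went the other way. Chst7, a 6-O-sulfotransferase gene, was at 49.1 FPKM in NSCs and 1.73 FPKM in STO cells. Chst11, a 4-O-sulfotransferase gene, was at 105 and 11.3 FPKM. Chst3, another 6-O-sulfotransferase gene, was at 5.91 and 0.00853 FPKM. The 3 adjusted p-values were at most 5.6e-08 by limma. Of the 9 keratan sulfate genes, 5 were tested, 3 were higher, 1 was lower and 1 did not pass. B4galt1, a galactosyltransferase gene with wider use in glycosylation, rose from 0.851 to 45.5 FPKM and B3gnt2 from 2.05 to 11.3 FPKM, and St3gal3 rose by 0.42. The sulfotransferase gene Chst2 was at 71.3 FPKM in NSCs and 5.92 FPKM in STO cells (difference -3.39, adjusted p = 2.2e-08). The median difference of the tested genes was -0.39 for the linkage region, 0.56 for chondroitin and dermatan sulfate and 0.42 for keratan sulfate, against -0.023 over all genes tested. Over all genes of each list, tested or not, it was -0.39, 0.311 and -0.010. For genes above the filter in only 1 cell type the direction of the difference was fixed, so the medians of tested genes depend on the filter.

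**Figure D4:**
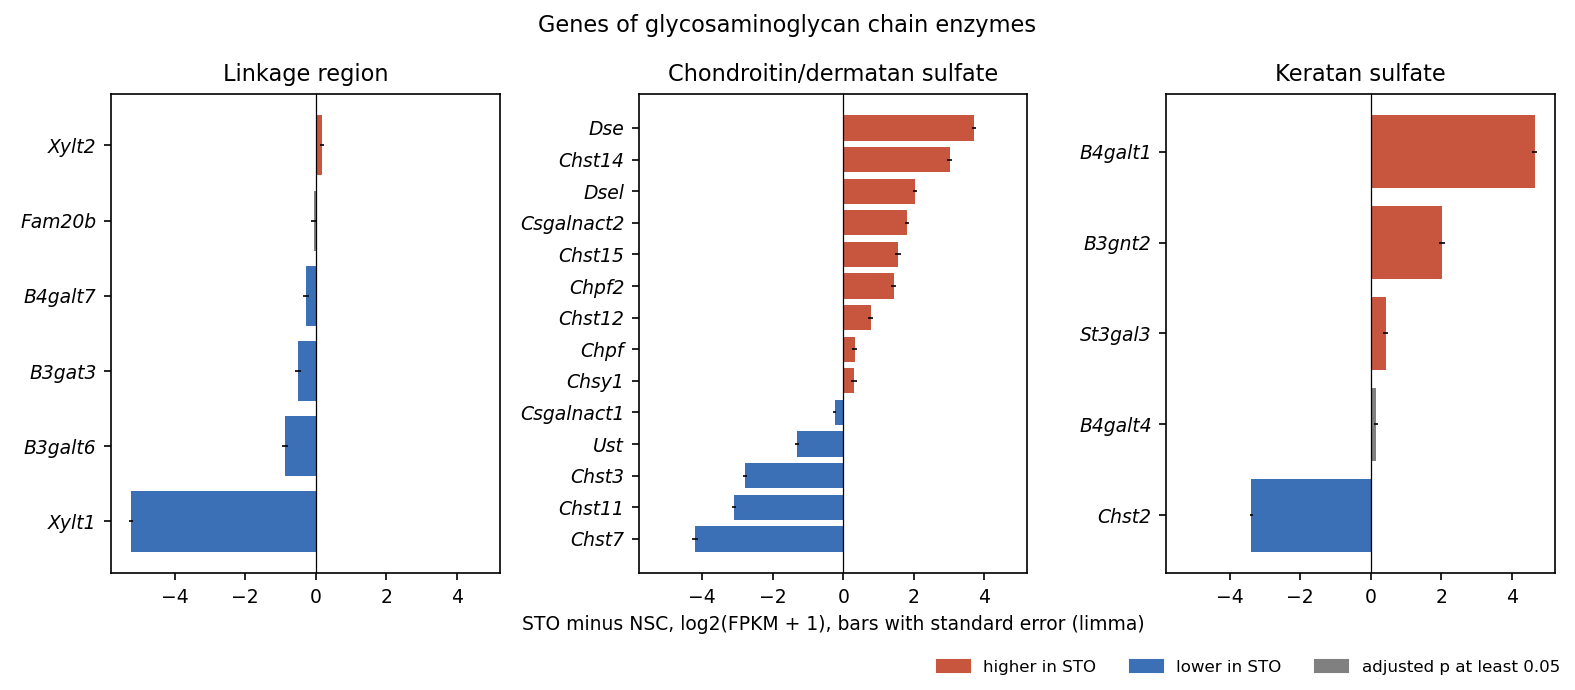
Difference between STO cells (n = 3) and NSCs (n = 2) in log2(FPKM + 1), with its standard error from limma, for the tested genes of 3 lists of chain enzymes; red bars passed the test as higher, blue bars as lower in STO cells, and grey bars did not pass. Xylt1 at -5.25 and B4galt1 at 4.65 are the extremes.

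Fibrillar collagens are the main ligands of these proteins in the matrix. Of the 11 fibrillar collagen genes, 7 were tested, 6 were higher and 1 was lower. Over all genes tested, 41.9% were higher and 43.7% were lower. The median difference was 6.03 among the collagen genes tested and 0.624 over all 11. Most of the collagen genes called higher passed the filter through their STO level alone, so the direction of their difference was fixed. Of those not tested, Col5a3 had means of 0.385 FPKM in NSCs and 0.0131 FPKM in STO cells. The others had higher means in STO cells: 0.031 and 0.59 FPKM in NSCs and STO cells for Col2a1, 0.23 and 0.508 FPKM for Col11a2, and 0.00668 and 0.126 FPKM for Col24a1. Col1a2 was at 0.00609 and 0 FPKM in NSCs and at 364.8, 373.6 and 353.5 FPKM in STO cells, Col3a1 was listed at 0 in NSCs with a mean of 339 FPKM in STO cells, and Col1a1 was at 0.173 and 254 FPKM. Col11a1 was lower, at 16.3 FPKM in NSCs and 4.14 FPKM in STO cells (difference -1.75, adjusted p = 5e-07 by limma).

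Of the 14 receptors and growth factor partners, 11 were tested, 9 were higher and 2 were lower. Over all genes tested, 41.9% were higher and 43.7% were lower. The median difference was 2.29 among the genes of this list tested and 0.954 over all 14. Most of those called higher, with Tlr2, Met and Ccn4 among them, passed the filter through their STO level alone. The direction of their difference was therefore fixed. Tlr2, the gene of a receptor for soluble biglycan, was at 0.142 FPKM in NSCs and 16.2 FPKM in STO cells, a difference of 3.91 (adjusted p = 1.7e-08 by limma). Met, a receptor that decorin binds, rose by 3.67 to 21.2 FPKM, and Ccn4, also called Wisp1 and known to bind decorin and biglycan, rose by 3.23 to 8.49 FPKM. Egfr, another decorin receptor, was lower in STO cells, at 17.7 FPKM against 53.8 FPKM (difference -1.55, adjusted p = 1.2e-06), and Tgfb2 was lower by -0.76.

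Of the 9 proteases known to cut core proteins or their propeptides, 5 were tested, 3 were higher, 1 was lower and 1 did not pass. Over all genes tested, 41.9% were higher and 43.7% were lower. The median difference was 2.08 among the proteases tested and 0.391 over all 9. Mmp2 passed the filter through its STO level alone, so the direction of its difference was fixed. Mmp2 was at 0.232 FPKM in NSCs and 161 FPKM in STO cells (difference 7.04), and Mmp14, which activates it, was at 2.45 and 194 FPKM (difference 5.82), with adjusted p-values of 3.5e-09 and 5.3e-09 by limma. Adamts5 rose by 2.08 and Adamts4 was lower by -0.63. Bmp1, which removes the propeptide of biglycan, was at 39.6 and 40.1 FPKM in NSCs and at 44.8, 39.5 and 42.4 FPKM in STO cells and did not pass the test (adjusted p = 0.29).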

How the data were processed

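By the labels and the study's methods, stranded mRNA libraries were prepared from total RNA and sequenced from both ends. The authors trimmed the reads and aligned them to mm9 with HISAT2 (given as version 4.8.2). The authors deposited FPKM values from Cufflinks 2.2.1 with confidence bounds, also in FPKM, for 40201 RefSeq transcripts; read counts were not used here. Symbols were matched for 99.4% of the transcripts through a RefSeq table of GRCm38.p6, used for names and for promoter sequences only. A gene's FPKM is the sum over its transcripts, grouped by symbol where their loci overlap. Of all transcripts, 41 had a failed estimate in some sample, and none belonged to a member.

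Fragments behind a value were estimated by taking the distance to the upper bound as 2 Poisson standard deviations. Summed over transcripts this gave between 15207133 and 22259953 fragments per sample. Genes with a mean of at least 1 FPKM in NSCs or STO cells were compared by the limma package, version 3.58.1 (R 4.3.3; linear models with moderated variances that follow a trend), on log2(FPKM + 1), two-sided, with Benjamini-Hochberg adjustment over the 12293 genes and a threshold of 0.05. Tables and figures were made with Python 3.11.15, pandas 2.3.3, numpy 2.4.6 and matplotlib 3.10.9.

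The members and gene lists were chosen with earlier results of these data known. Named were all members, the other family genes, up to 3 of the largest rises and 3 of the largest falls past the threshold in each list, the nearest gene on each side of each member, and the 2 genes most like each tested member. The fibrillar collagen genes not tested were named after their values were seen. So were markers that were at 0, below the filter or not past the threshold, and the split of the Dcn and Podn transcripts.

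Replicates 1 and 2 share their numbers between the cell types. The correlation of deviations from the group means was 0.007 and 0.061 for the same number and from -0.061 to 0.050 for different numbers. Since the 2 NSC deviations mirror each other, these values cannot settle whether samples of the same number form pairs. Alternatives changed the pseudocount, filter, scaling, variance trend, transcripts, fold limit and replicates. Protein sequences were not analysed here.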

Additional observations from a re-analysis of the deposited data

How the results depend on the processing

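Of 15 alternatives, those that gave new values for Bgn, Dcn, Ogn and Prelp yielded 56, all of which kept their direction and their side of the threshold. The differences ranged from 8.96 to 12.16 for Bgn, 7.47 to 10.80 for Dcn, 4.70 to 7.80 for Ogn and 3.94 to 6.39 for Prelp, with the highest values at a pseudocount of 0.1. Those of Omd, Lum and Fmod, below the level tested, were 0.62, 0.33 and 0.29. They moved to 2.58, 1.85 and 1.60 at a pseudocount of 0.1, and to 0.83, 0.52 and 0.47 after quantile normalization. The count of members higher in STO cells rose from 4 to 7 without the filter on low values, also at a pseudocount of 0.1, a setting added after seeing the data; more members were tested there. When calls also needed an absolute difference of 1 or more, the counts over all genes were 2103 higher and 2617 lower, against 5153 and 5375. With the replicate block, 4994 genes were higher and 5250 lower, and no call of a member changed. When any 1 replicate was dropped, between 4704 and 5065 genes were called higher and between 4900 and 5252 lower; without 1 NSC replicate, the lone NSC sample is assumed to vary like the STO samples. The difference of Podn was 0.38 after quantile normalization and 0.0185 with only its transcript of highest mean and 0.0007 without STO replicate 2, against -0.018; the cause was not tested. Depth limits Lum, Fmod and the NSC traces of Bgn and Ogn, which rest on few fragments. Fragments were not estimated for Aspn, Omd, Podn and Dcn, which have several transcripts.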
